A study of Homo sapiens with 6 samples.

Results

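SOX genes encode transcription factors that bind DNA through a domain called the HMG box. Described here are 10 of them with roles in the neural crest and in melanoma: SOX10, SOX9, SOX2, SOX4, SOX5, SOX6, SOX8, SOX11, SOX12 and SOX13. They were chosen by gene name, with earlier results of these data known, and are 10 of the 57914 rows of the deposited count table. RNA was sequenced from A375, an established human melanoma cell line grown in serum-containing DMEM. The cells were stained with Aldefluor, a substrate that fluoresces in cells with active aldehyde dehydrogenases (ALDH), and sorted. ALDH_High holds 3 libraries from the brightest 5% of cells and ALDH_Low holds 3 libraries from the dimmest 5%. Neither group carries a drug treatment or a genetic change in the labels. The labels do not say whether the replicates came from separate cultures or sorts, so p-values measure the spread between these libraries, which may be technical. Where the values of a set are listed, they stand in the order of replicates 1, 2 and 3.

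The family is divided by sequence of the HMG box. SOX2 belongs to group B and is known from stem cells and neural progenitors. SOX4, SOX11 and SOX12 form group C, activators of neural and mesenchymal progenitors. SOX5, SOX6 and SOX13 form group D, which lack an activation domain of their own and work through partner proteins. SOX8, SOX9 and SOX10 form group E. In the embryo, SOX10 keeps neural crest cells multipotent and then directs melanocytes and Schwann cells, while SOX9 is the master regulator of cartilage. In melanoma, SOX10 is the usual lineage factor, and SOX9 is known to rise when SOX10 is lost.

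Of the 10 genes, 7 were higher in ALDH_High and 1 was lower. SOX10, SOX5, SOX11, SOX2, SOX6, SOX4 and SOX8 rose by 2.43-fold to 35.0-fold, SOX9 fell, and SOX12 and SOX13 did not pass the test. The test was edgeR's quasi-likelihood test across all genes with Benjamini-Hochberg adjustment and a threshold of 0.05. Over the 17047 genes tested, 20.6% passed, 10.8% as higher and 9.83% as lower. The median log2 fold change was 1.88 over the 10 genes and -0.013 over all genes tested. These libraries are bulk RNA, so fewer cells that express a gene and less of its RNA per cell cannot be told apart. All 10 genes were tested, but SOX8 and SOX6 passed the filter on low counts only through ALDH_High. The filter asks for at least 0.316 CPM in 3 libraries, with CPM being counts scaled to library size; this is a level that no ALDH_Low library reached for SOX8 and 2 of 3 reached for SOX6. For 8 of the 10 genes the groups did not overlap in CPM, against 37.8% of all genes tested. The 7 genes that rose all did so by a log2 fold change of at least 1, as did 5.89% of all genes tested. Because the genes were chosen with earlier results known, these shares are given for scale and are no test of the set. In an exact permutation test on log2(CPM + 0.1), p was 0.1 for these 8 genes, the smallest possible, 0.2 for SOX13 and 0.7 for SOX12.

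**Figure D1:**
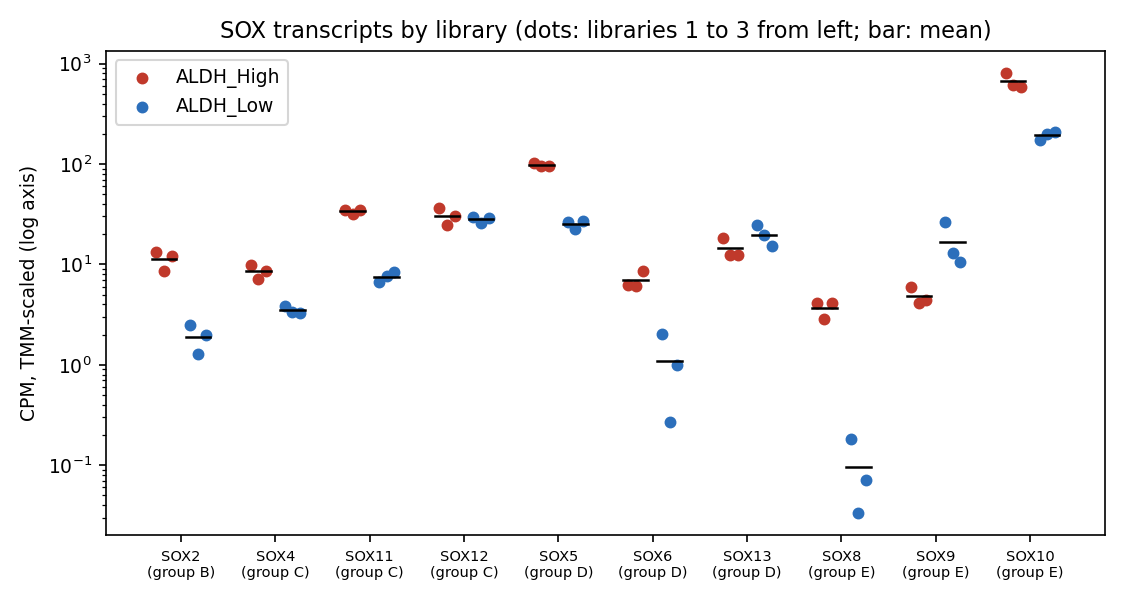
CPM of the 10 SOX genes on a log axis, ordered by group of the family; each dot is a library and each bar the mean of 3 libraries. SOX10 lies highest in both groups, and SOX9 is the gene whose ALDH_Low dots all lie above its ALDH_High dots, apart from the overlapping SOX12 and SOX13.

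Promoter sequences are shown to set members that rose beside members that did not pass the test. The RefSeq promoter table (GRCh38.p14) held 6 of the 10 genes: SOX2, SOX4, SOX5, SOX6, SOX12 and SOX13. The 250 bases before each start were searched on both strands for the SOX motifs AACAAAG or AACAATG or ATCAAAG or ATCAATG or TACAAAG or TACAATG or TTCAAAG or TTCAATG, which are spelled out in capitals wherever they occur. Such a motif stands in 17.9% of all 35116 promoters of the table. The promoters of SOX2 and SOX5 hold 1 each, those of SOX4, SOX12 and SOX13 hold none, and SOX6 has 5 listed promoters of which 2 hold a motif. A match describes the letters of this window and is not a binding site.

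The promoters of 3 of the 4 members that rose and are in the table follow; SOX6, the other, is left out because of its several start sites. They lie at chr3:181711675-181711924 (plus strand), chr12:24562492-24562741 (minus strand) and chr6:21593501-21593750 (plus strand).
SOX2: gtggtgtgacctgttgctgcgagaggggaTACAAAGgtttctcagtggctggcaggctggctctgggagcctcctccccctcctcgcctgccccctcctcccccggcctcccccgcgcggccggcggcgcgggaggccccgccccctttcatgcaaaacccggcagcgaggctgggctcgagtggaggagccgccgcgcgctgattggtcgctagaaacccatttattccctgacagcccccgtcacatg
SOX5: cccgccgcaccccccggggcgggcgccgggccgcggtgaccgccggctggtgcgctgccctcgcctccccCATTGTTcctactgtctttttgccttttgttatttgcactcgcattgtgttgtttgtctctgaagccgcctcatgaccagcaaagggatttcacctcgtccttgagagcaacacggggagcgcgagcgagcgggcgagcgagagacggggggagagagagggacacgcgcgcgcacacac
SOX4: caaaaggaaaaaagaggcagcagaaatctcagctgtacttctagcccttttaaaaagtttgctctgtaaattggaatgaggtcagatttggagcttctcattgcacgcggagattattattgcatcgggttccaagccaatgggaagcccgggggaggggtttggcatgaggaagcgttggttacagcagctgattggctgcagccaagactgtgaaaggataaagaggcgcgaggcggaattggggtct
The promoters of the 2 members that did not pass the test follow for comparison, at chr20:325302-325551 and chr1:204072865-204073114, both on the plus strand.
SOX12: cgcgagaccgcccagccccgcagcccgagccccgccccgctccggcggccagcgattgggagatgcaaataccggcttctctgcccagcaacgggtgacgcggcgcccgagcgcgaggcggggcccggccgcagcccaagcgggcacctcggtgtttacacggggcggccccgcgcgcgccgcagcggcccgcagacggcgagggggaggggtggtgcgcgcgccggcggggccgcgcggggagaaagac
SOX13: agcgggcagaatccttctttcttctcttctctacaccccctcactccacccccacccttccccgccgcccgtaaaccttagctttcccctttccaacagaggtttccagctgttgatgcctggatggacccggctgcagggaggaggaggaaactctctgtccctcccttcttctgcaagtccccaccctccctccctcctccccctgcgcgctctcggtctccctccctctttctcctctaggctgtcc
In the SOX2 promoter the motif begins 221 bases before the start, and in that of SOX5 it begins 180 bases before it. Both genes rose, as did SOX6, which holds a motif in some of its listed promoters, and SOX4, which has none in this window. SOX12 and SOX13, which did not pass the test, hold none either. With so few members in the promoter table, whether the motif divides the members that rose from the others cannot be decided.

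The sort is checked by ALDH1A3, the enzyme named in the study's title, which had 683, 1149 and 1088 CPM in the ALDH_High set and 345, 419.5 and 403 CPM in the ALDH_Low set (log2 fold change 1.32, SE 0.19, edgeR adjusted p 0.000734). Total counts lay between 26692868 and 37830603. The first principal component of log2 CPM separated the groups (64.2% of the variance), and the second (14.5%) separated ALDH_High library 1 from the other ALDH_High libraries. Of 8 melanocyte lineage markers, SOX10, MITF, S100B, S100A1 and MCAM were present, while TYR and MLANA did not exceed 3 counts in any library and PMEL had a mean of 0.412 CPM in ALDH_High. Pigment genes of the lineage were thus near the detection limit in both groups. Markers of other cell types were low for leukocytes (6 genes summing to 2.84 to 6.90 CPM in ALDH_High and 1.87 to 2.73 CPM in ALDH_Low, MS4A1 at 0 throughout) and fibroblasts (6 genes, 11.8 to 13.3 and 8.70 to 11.7 CPM). Keratinocyte markers summed to 43.7 to 68.1 and 47.3 to 60.03 CPM over 6 genes. Among them KRT5 was lower in ALDH_High (log2 fold change -3.63, edgeR adjusted p 0.000898), while KRT14 and KRT10 did not pass the test. Among the leukocyte markers, CD14 was lower (-1.96, edgeR adjusted p 0.0142) and LYZ higher (1.65, edgeR adjusted p 0.0240). KRT5 and CD14 passed the filter on low counts only through ALDH_Low. Endothelial markers (4 genes) summed to 11.3 to 13.7 and 2.07 to 2.74 CPM. KDR, a receptor of vascular growth factor, gave 11.1 ± 1.73 and 0.905 ± 0.449 CPM of this (SD, n = 3). The other tested members did not pass the test: PECAM1 had a log2 fold change of -0.77 (edgeR adjusted p 0.419) and VWF of -0.19 (edgeR adjusted p 0.905). Of 10 genes of the G2 and M phases of the cell cycle, 4 were higher (CDK1, TOP2A, MKI67 and AURKA) and 0 lower, beside 10.8% and 9.83% of all genes tested. These 10 cell cycle genes summed to 3415 to 3744 CPM in ALDH_High and 2350 to 2779 CPM in ALDH_Low. The part of these markers in the results on SOX genes was not tested.

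Group E held both the most abundant member and the only member that fell. SOX10 (ENSG00000100146, chr22:37970686-37987422, minus strand) had 809.5, 615 and 585 CPM in the ALDH_High set and 174, 197 and 209.8 CPM in the ALDH_Low set. The lowest ALDH_High library lay well above the highest ALDH_Low library. The means were 669.9 ± 122 and 194 ± 18.3 CPM (SD, n = 3), a 3.46-fold difference (log2 fold change 1.79, SE 0.15, 95% interval 1.46 to 2.12, edgeR adjusted p 3.14e-05). ALDH_High library 1 was the highest of the group for SOX10 and the lowest for ALDH1A3. In the annotation, SOX10 lies inside the span of POLR2F, a subunit gene of RNA polymerases, on the opposite strand. POLR2F did not pass the test, with 144 ± 19.9 and 145 ± 14.3 CPM (SD, n = 3; log2 fold change -0.0075, edgeR adjusted p 0.979), a value whose sign changed between alternative settings.

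SOX9 (ENSG00000125398, chr17:72121020-72126416) went the other way. It had 5.96, 4.14 and 4.37 CPM in the ALDH_High set and 26.2, 12.9 and 10.6 CPM in the ALDH_Low set. The groups did not overlap, and ALDH_Low library 1 stood above the other ALDH_Low libraries. The means were 4.82 ± 0.989 and 16.6 ± 8.41 CPM (SD, n = 3; log2 fold change -1.79, SE 0.33, 95% interval -2.52 to -1.06, edgeR adjusted p 0.00344). Without ALDH_Low library 1 the log2 fold change was -1.28 and still past the threshold (edgeR adjusted p 0.00666). It missed the threshold in limma on log2(TPM + 1) with low values kept (-1.30, limma adjusted p 0.0836), where TPM is a unit corrected for gene length. The antisense transcript SOX9-AS1, which overlaps SOX9, was too low to be tested, with 3 to 9 counts in a library.

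SOX8 (ENSG00000005513, chr16:981770-986979), a group E factor that works beside SOX10 in neural crest and glia, was low in ALDH_High and close to undetected in ALDH_Low. Its counts were 104, 98 and 142 in the ALDH_High set and 7, 1 and 2 in the ALDH_Low set. Of all 10 genes it had the largest fitted difference, with 3.70 ± 0.749 and 0.0956 ± 0.0769 CPM (SD, n = 3; log2 fold change 5.13, SE 0.47, 95% interval 4.08 to 6.18, edgeR adjusted p 5.60e-05). With so few counts in ALDH_Low its size is imprecise, and the log2 fold change was 6.05 without ALDH_Low library 1.

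The genes beside SOX8 were examined after its value was seen. Of 34 tested genes within 500 kb of it, 3 were higher and 0 lower: CEROX1, LMF1 and FBXL16. That is 8.82% higher, against 10.8% of all genes tested, so the count over 500 kb does not set this neighbourhood apart. The count says nothing of the closest genes, and CEROX1 and LMF1 lie 174 and 452 bases from SOX8. CEROX1 and FBXL16 passed the filter on low counts only through ALDH_High. CEROX1, a long noncoding RNA listed as AC009041.2 in the deposited table, lies on the opposite strand, 174 bases from SOX8. It had 80, 116 and 122 counts in the ALDH_High set and 5, 0 and 12 in the ALDH_Low set (log2 fold change 4.19, SE 0.65, edgeR adjusted p 0.00132). LMF1, a lipase maturation factor, had 11.5 ± 3.42 and 3.63 ± 0.472 CPM (SD, n = 3; log2 fold change 1.66, edgeR adjusted p 0.000869). Whether LMF1 and CEROX1 overlap was not examined, so their calls may not be independent. FBXL16, an F-box protein gene, had 0.569 ± 0.112 and 0.0432 ± 0.0749 CPM (SD, n = 3; log2 fold change 3.40, edgeR adjusted p 0.0123). The median log2 fold change of the 34 was -0.045. Around SOX10, 2 of 32 tested neighbours were higher and 2 lower, with a median of -0.043. Around SOX13, 1 of 11 tested neighbours was higher and 3 lower, with a median of 0.090, beside 9.83% lower over all genes tested. Some of these 3 passed the filter on low counts only through ALDH_Low. No tested gene lay within 500 kb of SOX11.

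The 3 group E genes did not change alike, and the balance between SOX10 and SOX9 was tested directly as a ratio of length-corrected levels in each library. The log2 ratio of SOX10 to SOX9 (TPM + 0.1) was 7.40, 7.51 and 7.37 in the ALDH_High set and 3.09, 4.27 and 4.65 in the ALDH_Low set. All ALDH_High ratios lay above all ALDH_Low ratios, by 3.42 on the log2 scale in the means, which correspond to 172 against 16.03 SOX10 transcripts per SOX9 transcript. The two-sided exact permutation p was 0.1, below which 3 libraries against 3 cannot go, and it was 0.2 after Benjamini-Hochberg adjustment over the 6 ratios computed.

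Group D split as well. SOX5 (ENSG00000134532, chr12:23529504-24562544, minus strand), which modulates SOX9 and SOX10 activity in cartilage and melanocytes, had 103, 96.04 and 96.2 CPM in the ALDH_High set and 26.6, 22.5 and 26.8 CPM in the ALDH_Low set. The spread within each group was small beside the gap between them. The means were 98.5 ± 4.16 and 25.3 ± 2.46 CPM (SD, n = 3; log2 fold change 1.96, SE 0.12, 95% interval 1.70 to 2.23, edgeR adjusted p 6.12e-06). The ratio of SOX10 to SOX5 overlapped between the groups (mean log2 ratio 2.99 ± 0.193 and 3.16 ± 0.215, SD, n = 3, exact permutation p = 0.3, adjusted 0.3), a difference of -0.18.

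SOX6 (ENSG00000110693, chr11:15966449-16739591, minus strand), the closest relative of SOX5 and its partner in cartilage, was rarer and more variable. Its counts were 159, 209 and 295 in the ALDH_High set and 78, 8 and 28 in the ALDH_Low set. The groups did not overlap in CPM, although ALDH_Low libraries differed several-fold among themselves. The means were 6.99 ± 1.44 and 1.10 ± 0.881 CPM (SD, n = 3; log2 fold change 2.63, SE 0.51, 95% interval 1.51 to 3.76, edgeR adjusted p 0.00461), and the log2 fold change was 3.48 without ALDH_Low library 1. C11orf58, which overlaps SOX6 on the opposite strand, did not pass the test (log2 fold change -0.017, edgeR adjusted p 0.935).

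SOX13 (ENSG00000143842, chr1:204073115-204127743), the third group D gene, had 18.5, 12.4 and 12.5 CPM in the ALDH_High set and 24.5, 19.4 and 15.1 CPM in the ALDH_Low set. The groups overlapped through ALDH_High library 1. The log2 fold change was -0.45 (SE 0.22, 95% interval -0.93 to 0.030, edgeR adjusted p 0.182), which leaves room for a fall of moderate size. Without ALDH_High library 1 it was -0.65 and passed the threshold (edgeR adjusted p 0.0455). The log2 ratio of SOX10 to SOX13 was 5.79 ± 0.0896 in ALDH_High and 3.57 ± 0.483 in ALDH_Low (SD, n = 3, no overlap, exact permutation p = 0.1, adjusted 0.2). Ratios within a group of the family were added after the values were seen. The log2 ratio of SOX5 to SOX13 was 2.81 ± 0.268 and 0.41 ± 0.384 (SD, n = 3, no overlap, exact permutation p = 0.1, adjusted 0.1 over 5 ratios). As these 5 ratios were picked with the values known, their p describes the gap and is no independent test.

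**Figure D2:**
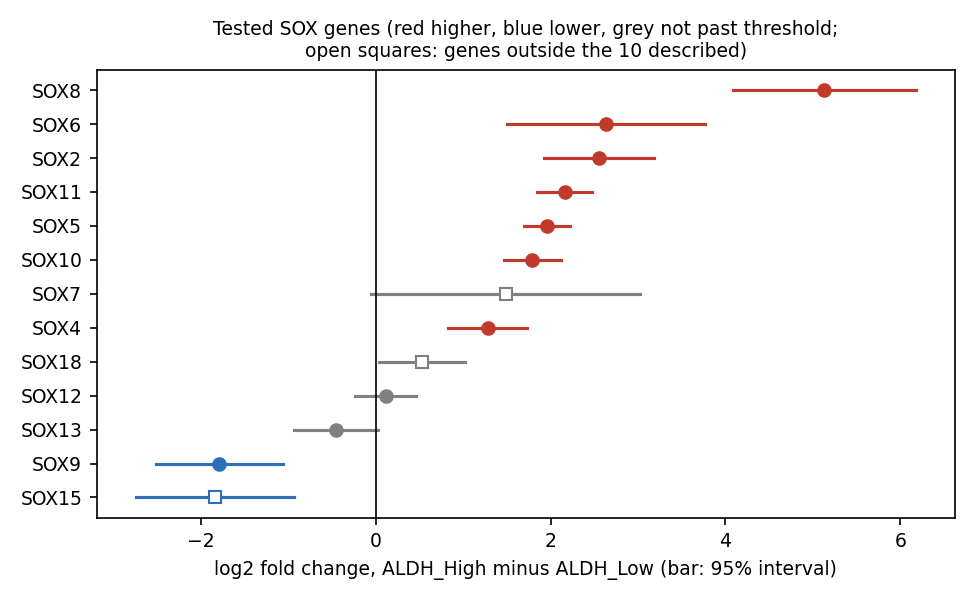
Log2 fold change (ALDH_High minus ALDH_Low) of the 13 SOX genes that could be tested, with 95% intervals from the edgeR fit; filled circles are the 10 genes described, open squares SOX7, SOX15 and SOX18. SOX8 lies farthest right at 5.13, SOX9 at -1.79 and SOX15 at -1.84 lie left, and the intervals of SOX12, SOX13 and SOX7 include 0.

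In group C, SOX11 and SOX4 were higher in ALDH_High. SOX11 (ENSG00000176887, chr2:5692384-5701385), a factor of immature neurons and other progenitors, had 34.5, 31.5 and 34.9 CPM in the ALDH_High set and 6.64, 7.70 and 8.30 CPM in the ALDH_Low set. No library came near the other group. The means were 33.7 ± 1.89 and 7.55 ± 0.842 CPM (SD, n = 3; log2 fold change 2.16, SE 0.14, 95% interval 1.84 to 2.47, edgeR adjusted p 9.14e-06). SOX4 (ENSG00000124766, chr6:21593751-21598619), widely expressed in tumours and progenitors, had 9.86, 7.18 and 8.68 CPM in the ALDH_High set and 3.89, 3.38 and 3.27 CPM in the ALDH_Low set. It was the smallest of the 7 rises, again without overlap (log2 fold change 1.28, SE 0.20, 95% interval 0.83 to 1.73, edgeR adjusted p 0.00156). It missed the threshold in limma on log2(TPM + 1) with low values kept (0.80, limma adjusted p 0.0638).

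SOX12 (ENSG00000177732, chr20:325552-330224), a broadly expressed group C gene, had 36.8, 24.7 and 30.05 CPM in the ALDH_High set and 29.8, 25.7 and 29.1 CPM in the ALDH_Low set. The groups overlapped, with the highest and the lowest value both in ALDH_High. The log2 fold change was 0.11 (SE 0.16, 95% interval -0.24 to 0.46, edgeR adjusted p 0.678), so that a change of the size seen for SOX4 or SOX11 lies outside the interval. Without ALDH_High library 1 the sign changed (-0.025). SOX12 lies on chromosome 20, where the 290 protein-coding genes averaging 5 CPM or more had a median log2 fold change of 0.28, and 86.9% of them were above 0. For the chromosomes of the other 9 genes this median lay between -0.035 and 0.080. The log2 ratio of SOX11 to SOX12, also added after the values were seen, was -0.47 ± 0.222 in ALDH_High and -2.46 ± 0.220 in ALDH_Low (SD, n = 3, no overlap, exact permutation p = 0.1, adjusted 0.1).

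SOX2 (ENSG00000181449, chr3:181711925-181714436), the group B gene whose promoter is shown above, had 13.3, 8.51 and 12.2 CPM in the ALDH_High set and 2.49, 1.27 and 1.98 CPM in the ALDH_Low set. The groups were far apart. The means were 11.3 ± 2.48 and 1.91 ± 0.612 CPM (SD, n = 3; log2 fold change 2.55, SE 0.28, 95% interval 1.92 to 3.18, edgeR adjusted p 0.000180). SOX2 lies inside SOX2-OT, a long noncoding RNA on the same strand, so reads in the shared stretch are uncertain for both. SOX2-OT had 17, 14 and 25 counts in the ALDH_High set and 8, 3 and 6 in the ALDH_Low set. It passed the test (log2 fold change 1.75, SE 0.47, edgeR adjusted p 0.0253) but missed it in 7 of 12 alternatives, with adjusted p up to 0.113, and it was tested only through ALDH_High. It was the only tested gene within 500 kb of SOX2.

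On the length-corrected TPM scale, SOX10 made up most of the SOX transcripts in every library. Its TPM was 397 ± 44.2 in ALDH_High and 111 ± 8.13 in ALDH_Low (SD, n = 3), followed by SOX5 at 49.8 ± 1.35 and 12.3 ± 1.05 TPM. In ALDH_High the order went on with SOX12 (9.97 TPM), SOX2 (7.94 TPM), SOX11 (7.15 TPM) and SOX13 (7.10 TPM), whose neighbours in this order overlapped, and then, below them, SOX6 (2.60 TPM), SOX4 (2.44 TPM), SOX9 (2.21 TPM) and SOX8 (1.83 TPM), which overlapped likewise. In ALDH_Low SOX5 was followed by SOX13 (9.48 TPM), SOX12 (8.95 TPM) and SOX9 (7.45 TPM), each overlapping the next, and SOX5 overlapped SOX13. After a gap came SOX11 (1.54 TPM), SOX2 (1.30 TPM) and SOX4 (0.970 TPM), with SOX6 (0.392 TPM) and SOX8 (0.0460 TPM) last. SOX9 thus stood at rank 9 of the 10 in ALDH_High and at rank 5 in ALDH_Low.

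**Figure D3:**
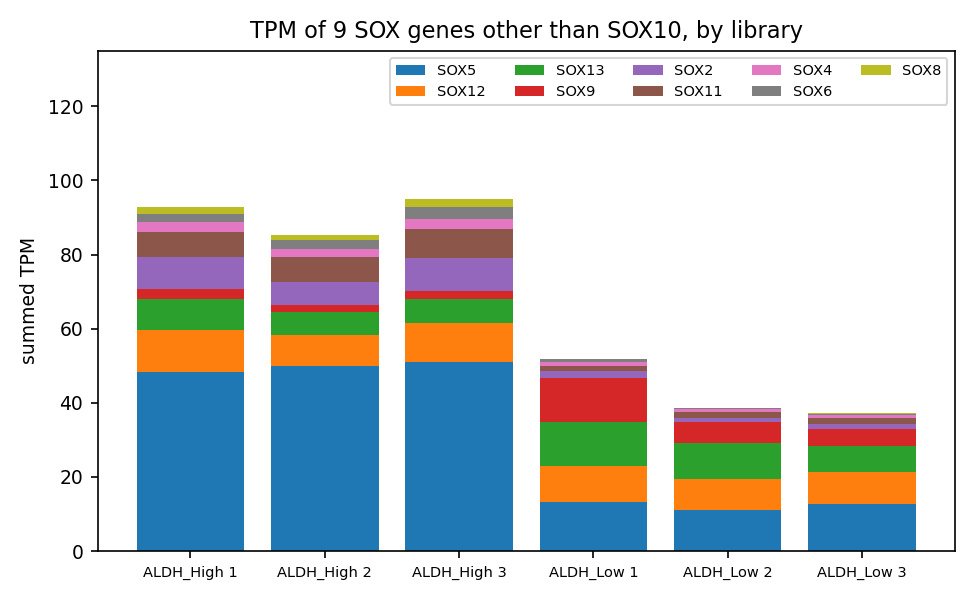
TPM of the 9 genes other than SOX10, stacked for each library; SOX10 is left out because it would hide the rest. The stacks reach 85.3 to 95.08 TPM in ALDH_High and 37.1 to 51.8 TPM in ALDH_Low, with SOX5 as the largest segment throughout and the SOX9 segment wide in ALDH_Low library 1.

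The TPM of the 10 genes summed to 488 ± 45.4 in ALDH_High and 154 ± 0.680 in ALDH_Low (SD, n = 3). The share of SOX10 in this sum was 82.8%, 81.5% and 79.4% in the ALDH_High set and 66.3%, 75.1% and 75.8% in the ALDH_Low set. The share of SOX9 was 0.453 ± 0.0241% in ALDH_High and 4.84 ± 2.55% in ALDH_Low (SD, n = 3). SOX13 held 1.45 ± 0.111% in ALDH_High and 6.16 ± 1.63% in ALDH_Low, and SOX12 held 2.04 ± 0.222% and 5.82 ± 0.438% (SD, n = 3). Apart from SOX6, every member's share separated the groups without overlap, with an exact two-sided permutation p of 0.1, the smallest possible, and 0.111 after adjustment over the 10 shares. A share also moves with the sum it is taken of, which SOX10 dominates, so its separation is no measure of a member's own change. The share of SOX4 was 0.5003% in ALDH_High and 0.631% in ALDH_Low although its TPM was 2.44 and 0.970, and SOX12 had 9.97 and 8.95 TPM. Group E as a whole held 82.1 ± 1.67% and 77.3 ± 2.73% (SD, n = 3), without overlap and with the same exact permutation p of 0.1.

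Of the 9 other SOX genes, 3 could be tested. SOX15 was lower in ALDH_High, with 4, 13 and 11 counts in the ALDH_High set and 33, 36 and 31 in the ALDH_Low set (log2 fold change -1.84, SE 0.41, edgeR adjusted p 0.00988). It passed the filter only through ALDH_Low, and missed the threshold in limma on unfiltered TPM (limma adjusted p 0.0648). SOX18, a factor of blood and lymph vessels on chromosome 20, had 4.42 ± 0.550 and 3.06 ± 0.360 CPM (SD, n = 3) and did not pass (log2 fold change 0.53, edgeR adjusted p 0.130). SOX7 did not pass either (1.48, edgeR adjusted p 0.170), with at most 17 counts in a library. SOX1, SOX3, SOX14, SOX17 and SOX21 were at 0 counts in all 6 libraries, and SOX30 did not exceed 3 counts.

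The authors' deposited table gives log2 coefficients for a high and a low group, each against a group named 1A3 whose libraries are not analysed here. In the authors' deposited table the difference between the high and the low coefficient was 1.81 for SOX10, -1.76 for SOX9 and 5.21 for SOX8. For SOX12 and SOX13 the authors' deposited table gives differences of 0.13 and -0.43. The authors' deposited table also has SOX8 and SOX11 far above the 1A3 group in both sorted groups, at 9.27 and 4.05 for SOX8 and 10.01 and 7.83 for SOX11. SOX8 had only 7, 1 and 2 counts in ALDH_Low, so its coefficient for the low group is no sign of strong expression. Without the counts of the 1A3 group, the size of these coefficients cannot be judged. SOX10 has 0.60 for the high and -1.21 for the low group in the authors' deposited table.

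Genes known as direct targets of SOX10 mostly rose with it. Of 19 listed, 12 were tested, 9 were higher in ALDH_High, 2 lower and 1 did not pass, with a median log2 fold change of 2.25. The shares over all genes tested were 10.8% higher and 9.83% lower. NES, an intermediate filament of neural progenitors, had 367, 351 and 351 CPM in the ALDH_High set and 58.7, 39.3 and 65.9 CPM in the ALDH_Low set (log2 fold change 2.71, SE 0.18, edgeR adjusted p 9.49e-06). ERBB3, the neuregulin receptor of Schwann cells and melanoma, had 275 ± 30.1 and 38.3 ± 12.6 CPM (SD, n = 3; 2.84, edgeR adjusted p 1.83e-05). EDNRB, the endothelin receptor that melanoblasts need, had 14.9 ± 4.69 and 1.75 ± 0.237 CPM (SD, n = 3; 3.08, edgeR adjusted p 3.60e-05).

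Of the pigment genes on the list, TYR, DCT, TYRP1 and MITF, 0 were called higher. TYR, DCT and TYRP1, the enzymes of melanin synthesis, were too low to be tested in either group. MITF, the melanocyte master regulator, was 1 of the 2 lower genes, at 12.98, 12.1 and 14.01 CPM in the ALDH_High set and 32.0, 22.8 and 19.2 CPM in the ALDH_Low set (log2 fold change -0.92, SE 0.19, edgeR adjusted p 0.00667), though not in limma on unfiltered TPM (limma adjusted p 0.109). No gene on this list was tested through ALDH_High alone.

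**Figure D4:**
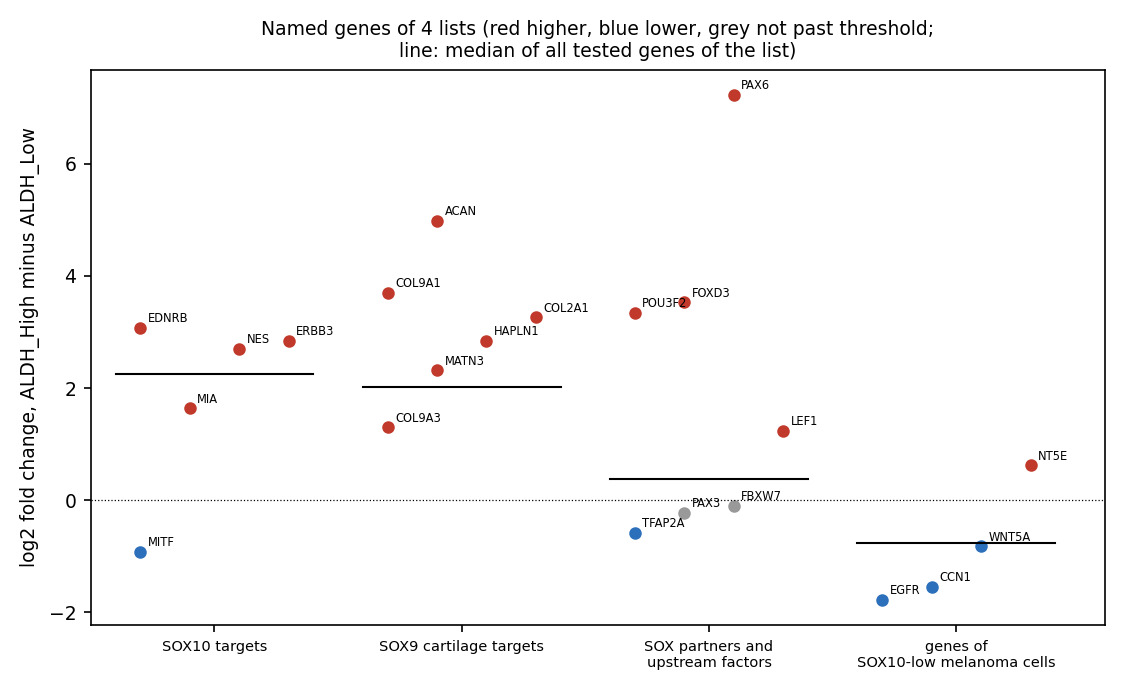
Log2 fold changes (ALDH_High minus ALDH_Low) of named genes of 4 lists, with the median over all tested genes of each list as a line. The horizontal position within a list only separates the labels. Some genes that the text names are not plotted, among them the SOX9 target AMH, which did not pass the test (0.12). The SOX10 and SOX9 target lists have medians of 2.25 and 2.02, and the list of genes of SOX10-low melanoma cells has -0.77; the fitted value of PAX6, at 0 counts in ALDH_Low, depends on the fit and is no measure of size.

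Genes known as targets of SOX9, most but not all of them cartilage genes, were also mostly higher in ALDH_High, where SOX9 was lower. Of 13 listed, 10 were tested, 9 were higher and 0 lower, beside 10.8% and 9.83% of all genes tested. AMH, the other tested gene, did not pass (log2 fold change 0.12, edgeR adjusted p 0.725). The median log2 fold change was 2.02, and 3 of the higher genes (COL2A1, COL9A1 and ACAN) passed the filter only through ALDH_High. HAPLN1, a link protein of the hyaluronan matrix, had 176, 216 and 187 CPM in the ALDH_High set and 23.1, 27.1 and 31.02 CPM in the ALDH_Low set (log2 fold change 2.84, SE 0.15, edgeR adjusted p 3.87e-06). ACAN, the large proteoglycan of cartilage, had 14.2 ± 4.17 and 0.437 ± 0.205 CPM (SD, n = 3; 4.99, edgeR adjusted p 1.55e-05). COL9A3, a collagen chain of cartilage on chromosome 20, had 324 ± 14.1 and 132 ± 22.04 CPM (SD, n = 3; 1.30, edgeR adjusted p 0.000111). MATN3, a matrilin of the same matrix, had 7.21 ± 2.18 and 1.45 ± 0.235 CPM (SD, n = 3; 2.32, edgeR adjusted p 0.000294). SOX5, SOX6 and SOX8, which can act on such genes, were higher in the same libraries, and their part in this was not tested.

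Partners and upstream factors of the SOX proteins were mixed: of 12 listed, 10 were tested, 4 were higher, 1 lower and 5 did not pass, with a median log2 fold change of 0.37. Among all genes tested, 10.8% were higher and 9.83% lower. Of the 4 higher genes, FOXD3 and PAX6 passed the filter on low counts only through ALDH_High. POU3F2, the POU factor also called BRN2 that pairs with SOX proteins in neural cells, had 25.8, 37.05 and 42.04 CPM in the ALDH_High set and 3.61, 2.61 and 4.17 CPM in the ALDH_Low set (log2 fold change 3.34, SE 0.23, edgeR adjusted p 1.22e-05). FOXD3, a neural crest specifier, had 4.76 ± 0.607 and 0.415 ± 0.211 CPM (SD, n = 3; 3.53, edgeR adjusted p 0.000109). LEF1, a nuclear effector of WNT signalling, had 32.3 ± 2.52 and 13.7 ± 0.642 CPM (SD, n = 3; 1.24, edgeR adjusted p 0.000113). PAX6, a partner of SOX2 in the eye and brain, had 20, 14 and 20 counts in ALDH_High and 0 in every ALDH_Low library, at least 6.22-fold higher against a floor of 3 counts per library. TFAP2A, a neural crest factor, was lower (-0.58, edgeR adjusted p 0.0266) but missed the threshold in 8 of 15 alternatives, with adjusted p up to 0.167. PAX3, which acts with SOX10 on MITF, did not pass (-0.22, edgeR adjusted p 0.359), nor did FBXW7, part of the ligase that degrades SOX9 and SOX10 (-0.10, edgeR adjusted p 0.811).

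SOX motifs stood in 26.1% of 23 listed promoters of the SOX10 targets, 0% of 14 of the SOX9 targets and 22.7% of 22 of the partners, beside the 17.9% of all promoters. Several promoters belong to the same gene, so these are not independent. The promoters with a motif of genes that rose are shown for MIA, a secreted melanoma protein chosen after its value was seen (168 ± 41.8 against 53.9 ± 11.8 CPM, SD, n = 3), at chr19:40774910-40775159, for FOXD3 at chr1:63322317-63322566 and for POU3F2 at chr6:98834324-98834573, all on the plus strand and with the motif in capitals.
MIA: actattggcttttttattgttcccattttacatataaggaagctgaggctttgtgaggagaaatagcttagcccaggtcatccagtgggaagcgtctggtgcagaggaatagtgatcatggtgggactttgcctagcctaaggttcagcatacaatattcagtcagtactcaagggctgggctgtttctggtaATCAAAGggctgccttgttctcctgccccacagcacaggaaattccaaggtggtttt
FOXD3: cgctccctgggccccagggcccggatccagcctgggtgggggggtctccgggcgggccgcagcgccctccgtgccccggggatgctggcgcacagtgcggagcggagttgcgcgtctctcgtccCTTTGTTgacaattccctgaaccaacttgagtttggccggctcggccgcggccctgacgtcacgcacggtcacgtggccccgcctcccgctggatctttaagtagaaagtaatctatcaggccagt
POU3F2: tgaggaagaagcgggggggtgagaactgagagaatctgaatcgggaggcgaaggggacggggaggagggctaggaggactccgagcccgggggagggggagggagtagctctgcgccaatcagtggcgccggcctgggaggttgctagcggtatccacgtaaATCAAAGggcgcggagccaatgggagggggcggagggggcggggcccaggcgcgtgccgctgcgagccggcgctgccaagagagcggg
The motif begins 57 bases before the start in the MIA promoter, 126 in FOXD3 and 88 in POU3F2. The second promoter listed for MIA holds none. CDH19, named here only for its motif, and PAX6 also rose and have listed promoters with a motif, which are not shown. Motifs also stand in promoters of genes that did not rise, among them 2 promoters of MITF, which was lower, and 1 of FBXW7, which did not pass the test.

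Genes known to be raised in melanoma cells that have lost SOX10 were mostly lower in ALDH_High. Of 12 listed, all 12 were tested, 7 were lower, 1 higher and 4 did not pass, with a median log2 fold change of -0.77. Beside this, 9.83% of all genes tested were lower and 10.8% higher. EGFR, a receptor tyrosine kinase known to appear when SOX10 is suppressed, had 13.7, 16.6 and 18.1 CPM in the ALDH_High set and 61.3, 62.2 and 42.4 CPM in the ALDH_Low set (log2 fold change -1.78, SE 0.18, edgeR adjusted p 9.05e-05). WNT5A, a noncanonical WNT ligand, had 28.9 ± 0.770 and 50.99 ± 1.54 CPM (SD, n = 3; -0.82, edgeR adjusted p 0.000487). CCN1, a matricellular target of YAP listed under its older symbol CYR61, had 170.4 ± 52.3 and 499 ± 62.5 CPM (SD, n = 3; -1.55, edgeR adjusted p 0.000635). NT5E, the ectonucleotidase CD73, was the member that rose (93.6 ± 1.23 and 60.8 ± 7.03 CPM, SD, n = 3; 0.62, edgeR adjusted p 0.00380). The ALDH_Low libraries themselves still held SOX10 at a mean of 194 CPM.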

How the data were processed

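RNA of 3 ALDH_High and 3 ALDH_Low libraries was sequenced from stranded mRNA libraries (TruSeq), per the labels' protocols. Per the submitters' processing notes, FastQC 0.11.3, STAR 2.5.1b, HTSeq 0.6.1, DESeq2 and the build GRCh38 were used, with no role stated. The authors deposited whole-number values that are estimated counts rounded to integers, as read from the values: in each library 133 to 177 genes had a count of 0 beside a TPM above 0. The authors also deposited TPM values, with gene lengths not given in the sources used here, and log2 coefficients. Per the file headers, these have the column names of DESeq2 and span 5 groups, of which 3 are not analysed here. Whether counting used strand is not given in the sources used here, so genes that overlap are uncertain. Rows without a gene name (261, at most 0.0267% of a library) carry an Ensembl identifier and were kept.

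Counts were filtered with filterByExpr, scaled with TMM and tested with edgeR 4.0.16 (quasi-likelihood F-test, two-sided). The Benjamini-Hochberg adjustment ran over the 17047 genes tested. CPM values use TMM-scaled library sizes, intervals are 95% intervals of the fit, and the floor of 3 counts covers counting error only. The design allowed for estimated counts by rounding, so the planned test was kept. Single values were compared by exact two-sided permutation over libraries. The fit was checked on simulated counts. Alternatives were DESeq2 1.42.0, limma 3.58.1 on log2(TPM + 1) and log2(TPM + 0.1), other scalings and filters, a block and each library left out. Positions are from GENCODE 44 on GRCh38 and promoters from the RefSeq table on GRCh38.p14.

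The 10 genes and the lists were chosen with earlier results of these data known. Named are all 10 genes, the other SOX genes, genes that overlap them, ALDH1A3, and in each list up to 4 higher and 4 lower genes with the smallest p (some genes the rule names are not reported here); CEROX1, LMF1, FBXL16 and genes named for a role without passing were chosen after their values were seen.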

Additional observations from a re-analysis of the deposited data

How the results depend on the processing

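The counts of 7 SOX genes higher and 1 lower were within 1.5 times in the alternatives tried except as follows. Limma on log2(TPM + 1) with low TPM kept gave 0 lower, since SOX9 missed the threshold there (-1.30, adjusted p 0.0836), as did SOX4 (0.80, adjusted p 0.0638). Leaving out 1 library gave 1 to 2 lower members, the second being SOX13 without ALDH_High library 1 (from -0.65 to -0.25 over these fits); SOX12 ran from -0.025 to 0.26. SOX10, SOX2, SOX5 and SOX11 passed in all 15 alternatives, SOX6 in the 14 and SOX8 in the 12 that could test them. Over all genes, the 3513 calls (1838 higher, 1675 lower) became 2006 (1155 and 851) in that same limma fit, 1930 (1060 and 870) at an adjusted p below 0.01 and 1958 (1004 and 954) with log2 fold changes limited to sizes of 1 or more, the latter pair being stricter by construction. The lower calls were 1047 and 1051 in limma with pseudocounts 1 and 0.1, and 1073 to 2049 with 1 library left out. For limma the cause was not tested. With a pseudocount of 1 TPM, the log2 ratio of SOX10 to SOX4 differed between groups by 1.02 in place of 0.59, to SOX2 by -0.14 in place of -0.72, and to SOX6 by 0.44 in place of -0.84. The added ratio of SOX10 to SOX8 changed likewise from -1.91 to 0.39; SOX8 and SOX6 lie below 1 TPM in ALDH_Low, so this depth sets no order for them. The POLR2F value near 0 changed sign to 0.013 (DESeq2), 0.0013 (DESeq2 size factors), 0.038 (each limma fit on TPM) and 0.0053 (no count filter), and ran from -0.105 to 0.0878 with 1 library left out. With a replicate block in the model, 3748 genes passed (1947 higher and 1801 lower), which kept the call of every SOX member (SOX10 1.78, SOX9 -1.69). Libraries of equal number had correlations of 0.15, 0.076 and 0.11 in their deviations on log2 CPM with edgeR's default prior and 0.19, 0.13 and 0.11 on log2(CPM + 0.5), so whether the numbers pair the libraries depends on that scale; they were not taken as pairs.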
